A study of Mus musculus with 3 samples.

Results

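Malat1 and Neat1 are neighbouring genes for long noncoding RNAs that stay in the nucleus. They were taken by name as 2 of the 50507 genes counted in libraries from mouse embryonic fibroblasts during the first days of reprogramming to pluripotency. Both were among the 3013 genes that passed a filter on low counts. Malat1 ranked 49 of these by mean level and Neat1 ranked 2647, so the pair spans a deeply and a thinly counted RNA.

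Primary wild-type fibroblasts of the BL6 strain were transduced with a tet-STEMCCA lentivirus, which carries Oct4, Sox2, Klf4 and c-Myc in a doxycycline-inducible cassette, and with an rtTA lentivirus at an MOI of 1. All groups shared this transduction. Reprogramming started at day 0 with a medium of DMEM and 10% FBS that held doxycycline at 2 µg/mL, the GSK3 inhibitor chiron, an Alk5 inhibitor, ascorbic acid at 50 µg/mL and LIF, so that Day00 stands for cells at the start of culture in it. Untransfected cells were taken daily from day 0 to day 6 (Day00 to Day06, 3 libraries each). Cells for the screen were reverse transfected at 40 nM with pooled siRNAs against 1 of 33 genes (98 libraries), a non-targeting siRNA (nt, 3 libraries) or no siRNA (Mock, 5 libraries), re-plated 24 hours later, and cultured to day 6. The sources give no ages or sexes of animals and do not say whether replicates came from separate cell preparations. Transfections were done in triplicate, and all 127 libraries used shared 1 estimate of the spread for each gene. The p-values thus measure the spread between such cultures and libraries. For the days as well, this spread came mostly from transfected libraries. The cassette acts in cells that took up both viruses, and the cultures were read in bulk, where fewer cells of a type and less of an RNA per cell cannot be told apart.

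Malat1 is a very abundant RNA of nuclear speckles, the bodies rich in SR splicing proteins. Its mature 3′ end is made by RNase P cleavage in place of ordinary polyadenylation, next to an A-rich tract that folds with U-rich motifs. Neat1 is the scaffold of paraspeckles, nuclear bodies that hold RNA-binding proteins such as Nono, Sfpq and Pspc1. A short polyadenylated Neat1 transcript and a long one with a Malat1-like end start from the same promoter, and the long one builds the paraspeckle.

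On GRCm38, in the GENCODE vM21 annotation, Malat1 (ENSMUSG00000092341.3, lincRNA) lies on the minus strand of chromosome 19 from 5795690 to 5802672 and Neat1 (ENSMUSG00000092274.3, lincRNA) on the same strand from 5824708 to 5845478. The main Malat1 transcript, Malat1-201, is 1 exon of 6983 nt. Neat1-201 is 1 exon of 20771 nt, and Neat1-202 has 2 exons and 3004 nt. The libraries were primed with oligo(dT), and where the primer paired on these RNAs was not tested. The annotated 3′ ends of the transcripts and an A run of Malat1-201 are shown as stretches of 30 bases. The annotated end of Malat1-201 need not be the mature end described above. Each is the last 30 bases of its transcript, except the Malat1 A run, whose 30 bases end 298 bases before the end of Malat1-201. Capitals mark AATAAA or a run of 12 A, searched on the transcript strand only, and the long Neat1 end holds neither.
Malat1-201 end, chr19:5795690-5795719, minus strand: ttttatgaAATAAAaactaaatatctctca
Malat1-201 A run, chr19:5795988-5796017, minus strand: tggcctttccctagctttAAAAAAAAAAAA
Neat1-202 end, chr19:5842307-5842336, minus strand: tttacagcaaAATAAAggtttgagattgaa
Neat1-201 end, chr19:5824708-5824737, minus strand: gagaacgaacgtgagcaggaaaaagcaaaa
AATAAA stood in the last 30 bases of 23.3% of 141722 annotated mouse transcripts, and a run of 12 A in the last 400 bases of 1.74% of the 122312 transcripts at least that long. The counts are per gene, so the table does not give the short and the long Neat1 transcript apart, nor counts from the A run and from the annotated end of Malat1. Gm37376, annotated on the opposite strand inside the 5′ part of Malat1 (chromosome 19, 5801941 to 5802393), held 458 counts over the 127 libraries, 2.82% of the Malat1 count. The sources name the pipeline's default settings for counting and do not spell out the use of strand, so Malat1 counts from this overlap are uncertain.

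The 127 libraries used held 29656 to 235292 counts. Counts in mitochondrial genes took 10.8% to 31.4% of a library. Malat1 had 30 to 559 counts in each library, with a median of 109, and took 0.154% of all counts. Neat1 had 0 to 18 counts with a median of 3, and 7 libraries held none. Levels are given in CPM, counts scaled to a common library total after TMM scaling over the filtered genes. Within a condition the SD of Malat1 was 0.284 on the log2 scale, against 0.144 from counting alone. For Neat1 the SD was 0.609, no larger than the 0.663 that counting alone gives, so that differences between single Neat1 libraries were not detectable at this depth. The fibroblast markers Col1a1 and Col1a2, collagen chains, had 280 and 510 counts over the 3 Day00 libraries, and the epithelial markers Cdh1 and Epcam had none there and 13 and 9 on Day06. The leukocyte marker Ptprc and the endothelial marker Pecam1 had 0 counts on Day00, and the macrophage marker Cd68 had 1.

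Malat1 rose on day 2, peaked on day 3 and was back near its starting level by day 6. On Day00 the 3 libraries, from pools 1, 2 and 3, stood at 1191, 1101 and 1879 CPM, and on Day01 at 1375, 1051 and 1412 CPM. They reached 2449, 2215 and 2006 CPM on Day02. On Day03 they stood at 5946, 3939 and 4918 CPM. All 3 Day03 libraries lay above every other library used, the highest of which held 2924 CPM. The level then fell to 2433, 1670 and 1611 CPM on Day04, to 1738, 1420 and 1984 CPM on Day05, and to 1528, 1392 and 1445 CPM on Day06. The Day04 to Day06 libraries overlapped those of Day00.

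**Figure D1:**
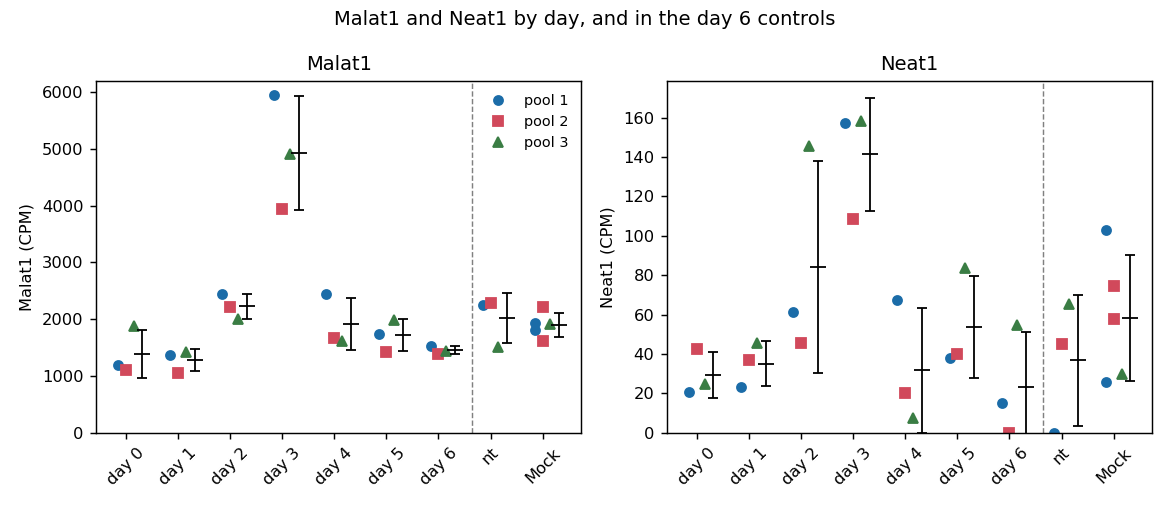
Malat1 (left) and Neat1 (right) in CPM in each library of days 0 to 6 and of the day 6 controls nt and Mock. Coloured symbols are libraries by sequenced pool, black dashes with bars are the mean ± SD (n = 3, 5 for Mock). The Day03 Malat1 libraries sit at 3939 to 5946 CPM, above all others, and the Day03 Neat1 libraries at 108 to 158 CPM.

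The quasi-likelihood test of edgeR with Benjamini-Hochberg adjustment over the 3013 genes gave a difference of Malat1 between any of the days (adjusted p = 1.16e-26), as it did for 42.5% of genes. Against Day00, Malat1 was higher on Day03 by 1.72 ± 0.18 on the log2 scale (SE, adjusted p = 1.61e-16), in a comparison that called 10.9% of genes. The difference was 2.32, 1.84 and 1.39 within pools 1, 2 and 3. On Day02 it was higher by 0.57 ± 0.18 (adjusted p = 0.0233, 11.6% of genes called), a call that was lost without pool 1 (adjusted p = 0.154), without pool 2 (adjusted p = 0.133), without the replicate block (0.65, adjusted p = 0.105), and with RLE size factors (adjusted p = 0.134), limma (adjusted p = 0.205) and DESeq2 (adjusted p = 0.194). The Day02 difference was 1.04, 1.01 and 0.094 within pools 1, 2 and 3, and 0.96 in the fit without pool 3. The other 4 days did not pass the test, while those comparisons called 9.89% of genes on Day01, 18.7% on Day04, 31.9% on Day05 and 22.2% on Day06, and on Day06 the difference from Day00 was -0.02 ± 0.19. The Day04 difference of 0.33 ± 0.18 passed in 2 of 12 alternatives, over which it ran from 0.12 to 0.76. It was 1.03, 0.60 and -0.22 within pools 1, 2 and 3.

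Day by day, 3 of 6 steps in Malat1 passed the test. It rose from Day01 to Day02 by 0.78 ± 0.19 (adjusted p = 0.00269, 4.81% of genes called), although not without pool 2 (adjusted p = 0.0794) nor without the replicate block (adjusted p = 0.0715) or with limma (0.51, adjusted p = 0.502). It rose again from Day02 to Day03 by 1.16 ± 0.17 (adjusted p = 2.56e-08, 2.82% of genes called), and fell by 1.39 ± 0.17 on the log2 scale from Day03 to Day04 (adjusted p = 5.36e-12, 11.9% of genes called). The first step and the last 2 called 9.89%, 4.78% and 7.87% of genes, without Malat1. The rise to Day03 and the fall to Day04 had the same sign in each pool, and 38 genes, 1.26% of those tested, were called both higher on Day03 than on Day02 and lower on Day04 than on Day03. In the order of mean level, Day03 (4934 ± 1004 CPM, SD, n = 3) came before Day02 (2223 ± 222), Day04 (1905 ± 459), Day05 (1714 ± 283), Day06 (1455 ± 69), Day00 (1390 ± 426) and Day01 (1279 ± 199). Below Day03 no neighbours in this order passed the test, with Day02 above Day04 by 0.24 ± 0.17 (adjusted p = 0.605, 1.96% of genes called).

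Neat1 was also highest on day 3, at a far lower count. The Day00 libraries held 1, 2 and 3 counts (20.5, 42.3 and 24.8 CPM) and the Day02 libraries 5, 3 and 16 (61.2, 45.5 and 146 CPM). On Day03 there were 9, 6 and 18 counts (157, 108 and 158 CPM), and on Day04 6, 2 and 1 (67.3, 20.2 and 7.26 CPM). The Day03 libraries lay above those of every other day, except that the pool 3 library of Day02 lay among them. Over the whole study, 11 libraries outside Day03 were at or above the lowest Day03 library.

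Neat1 differed between days (adjusted p = 0.00141, edgeR), a call lost in 2 of 12 alternatives. It was higher on Day03 than on Day00 by 2.28 ± 0.66 on the log2 scale (adjusted p = 0.0106). As summed counts this was 33 against 6, a ratio of 5.27 with an exact 95% interval of 2.18 to 15.4 that covers counting error only. From Day03 to Day04 it fell by 2.33 ± 0.60 on the log2 scale (adjusted p = 0.0031), from 33 to 9 counts. No other day or step passed the test, with the rise from Day02 to Day03 at 0.66 ± 0.51. Without pool 1 the Day03 call was lost (2.16, adjusted p = 0.0631), and without pool 3, which holds 18 of the 33 counts, both calls were lost (1.97 with adjusted p = 0.227, and -1.61 with adjusted p = 0.182).

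Several other RNAs were also highest on day 3, the mitochondrial share rose to Day03 and stayed up to Day05, and their part in the Malat1 peak was not tested. Counts in mitochondrial genes took 14.8% ± 1.0 on Day00, 11.5% ± 0.9 on Day01, 17.1% ± 0.7 on Day02, 21.6% ± 1.6 on Day03, 20.4% ± 0.4 on Day04, 20.9% ± 0.6 on Day05 and 16.3% ± 0.3 on Day06 (SD, n = 3). With mitochondrial and ribosomal protein genes left out of the scaling, Malat1 was higher on Day03 than on Day00 by 1.74, close to the value with them. Among 16 other nuclear noncoding RNAs, 14 were in the count table and 4 passed the filter. Gm26917 and Rn7sk were higher and Meg3 lower on Day03 than on Day00, 3 of 4 against 10.9% of all filtered genes. Of all conditions Rn7sk was highest on Day03 and Meg3 on Day00, and the filter keeps genes that are high in a few libraries. These 2 shares thus cannot be compared. Rn7sk, the RNA polymerase III product that holds the elongation factor P-TEFb inactive, had no count on Day00, then 8, 3 and 8 counts on Day02, 25, 13 and 21 on Day03, and 1, 4 and 1 on Day04. Its Day03 level was at least 14.85-fold higher, the exact 95% lower limit of the ratio of 59 to 0 counts, and 18.85 times a floor of 3 counts over the Day00 libraries (adjusted p = 1.60e-09). Gm26917, an annotated long noncoding RNA, rose from 107 ± 24 CPM on Day00 to 576 ± 46 on Day02 and 922 ± 347 on Day03, a log2 difference of 2.91 ± 0.29 from Day00 (adjusted p = 2.32e-17), and fell to 302 ± 75 on Day04. Its step from Day02 to Day03 did not pass the test (0.61 ± 0.21, adjusted p = 0.077). Unlike Malat1, Gm26917 was still higher on Day06 than on Day00 (2.04 ± 0.31, adjusted p = 1.28e-08).

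Meg3, an imprinted noncoding RNA, went from 324 ± 68 CPM on Day00 to 73.5 ± 39.2 on Day03 (-1.94 ± 0.49, adjusted p = 0.00221) and to 17.8 ± 2.8 on Day06 (-3.98 ± 0.62, adjusted p = 2.96e-08). Kcnq1ot1, the antisense RNA of an imprinted locus, was the remaining one that passed the filter and was not called on Day03 (0.61 ± 0.59). Among protein-coding genes, the heme oxygenase gene Hmox1, induced by oxidative stress, went from 446 ± 220 CPM on Day02 to 984 ± 126 on Day03 and 202 ± 98 on Day04 (1.10 ± 0.24, adjusted p = 0.00151, then -2.30 ± 0.27, adjusted p = 1.71e-12). The heat shock gene Hspa1b went from 35.5 ± 10.6 to 171 ± 60 and 23.5 ± 10.7 CPM over the same days, but had stood at 119 ± 98 CPM on Day00, from which Day03 differed by 0.38 ± 0.50 (adjusted p = 0.721). Its steps into and out of Day03 were called (2.28 ± 0.62, adjusted p = 0.016, then -2.79 ± 0.62, adjusted p = 4.34e-04).

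**Figure D2:**
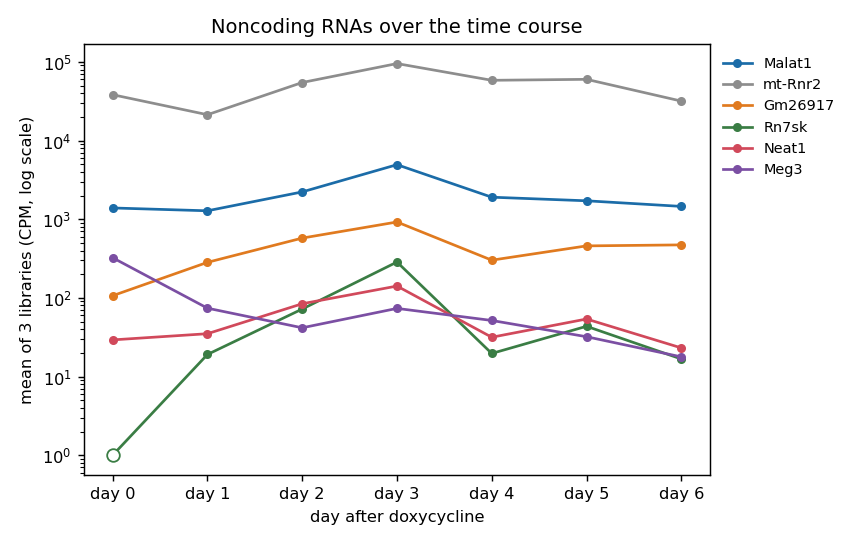
Mean CPM of 3 libraries per day on a log scale for Malat1, Neat1, Rn7sk, Gm26917, Meg3 and the mitochondrial rRNA mt-Rnr2. The open circle marks Rn7sk on day 0, which had no count and is drawn at 1 CPM. All but Meg3 are highest on day 3, where Malat1 reaches 4934 and Neat1 141 CPM.

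Proteins of the bodies that these RNAs belong to were called around day 3 at shares of 0% to 10.7% per list and comparison. All filtered genes were called at 2.82% to 11.9% in these comparisons, and the difference was not tested. Of 29 paraspeckle proteins, 14 passed the filter, and on Day03 against Day00 none was called higher and 1 lower (7.14%, against 10.9% of all filtered genes), with a median log2 difference of -0.16 against 0.01 over all filtered genes. The member called lower was Nono (-1.29 ± 0.43, adjusted p = 0.0288), a core paraspeckle protein. Of 34 nuclear speckle and SR proteins, 28 passed, and again none was higher and 1 lower (3.57%), the splicing factor Srsf3 (-0.88 ± 0.22, adjusted p = 0.00169), with a list median of -0.09. Srsf3 was also the only member of both lists called from Day02 to Day03 (-0.79 ± 0.21, adjusted p = 0.0162, 3.57% of the speckle list against 2.82% of all filtered genes). Srsf3 rose from Day03 to Day04 (0.89 ± 0.21, adjusted p = 7.80e-04), opposite to Malat1. In that step, which called 11.9% of all filtered genes, 1 paraspeckle protein (7.14%) was called, the cold-inducible RNA-binding protein Rbm3 (1.74 ± 0.35, adjusted p = 6.76e-05), and the speckle list had 2 higher and 1 lower (10.7%), with Srsf7 higher (1.42 ± 0.37, adjusted p = 0.0041) and the SR protein kinase Clk1 lower (-1.74 ± 0.56, adjusted p = 0.0222).

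Of 14 genes for RNase P subunits, RNase Z and other RNA-handling enzymes (Mettl16, Mettl3 and Rtcb), 3 passed the filter and none was called on Day03 against Day00 or in the step to Day04. Of 18 protein-coding and other genes around the locus, 15 had any count, 14 to 214 over the 127 libraries, and none passed the filter, so whether the neighbourhood moved with Malat1 was not detectable at this depth.

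By day 6 the speckle list had 3 members higher and 1 lower than on Day00, 14.3% of those filtered, in a comparison that called 22.2% of genes. Pnisr (1.47 ± 0.53, adjusted p = 0.0311), Srsf7 (0.97 ± 0.32, adjusted p = 0.0158) and Srsf2 (0.74 ± 0.21, adjusted p = 0.00444) were higher, and the spliceosome subunit Sf3b1 was lower (-0.58 ± 0.21, adjusted p = 0.0349). The paraspeckle list had 1 lower (7.14%), Hnrnpr (-1.04 ± 0.40, adjusted p = 0.0474). Malat1 and Neat1 themselves were not called (-0.02 ± 0.19 and 0.19 ± 0.82).

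At day 6 the transfected controls carried somewhat more Malat1 than untransfected cells, a difference that did not pass the test. The nt libraries stood at 2248, 2288 and 1511 CPM and the 5 Mock libraries at 1614 to 2209 CPM with a median of 1911, while Day06 lay at 1392 to 1528 CPM. All Mock libraries lay above those of Day06, and the lowest nt library overlapped them. The log2 difference of nt from Day06 was 0.43 ± 0.18 (adjusted p = 0.0665, with 26.6% of genes called) and that of Mock was 0.35 ± 0.17 (adjusted p = 0.116, 28.9% called). With total counts and no scaling factor the median of all genes moved from -0.01 to -0.38 for nt and from -0.15 to -0.58 for Mock. Malat1 moved with it, to 0.055 and -0.089. Another scaling factor moves all genes of a comparison nearly alike, so its distance from the median gene is no separate check. Mock and nt differed by -0.08 ± 0.17 (adjusted p = 0.926, 1.56% called).

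Neat1 had 0, 3 and 8 counts in nt, 1, 3, 2, 3 and 2 in Mock, and 1, 0 and 8 on Day06. None of its 3 differences among these groups passed the test, the largest being Mock above Day06 by 0.61 ± 0.73. In the same comparison of nt with Day06, 21.4% of the paraspeckle and 25% of the speckle members were called, against 26.6% of all filtered genes. Matr3 (1.36 ± 0.22, adjusted p = 1.93e-07) and Rbm3 (0.89 ± 0.29, adjusted p = 0.0131) were the paraspeckle proteins called higher and Cpsf6, a cleavage factor subunit, was lower (-1.09 ± 0.42, adjusted p = 0.0403). Among speckle proteins, Bclaf1 (0.88 ± 0.20, adjusted p = 3.68e-04), Srsf3 (0.85 ± 0.17, adjusted p = 2.89e-05) and Luc7l3 (0.74 ± 0.23, adjusted p = 0.0111) were higher. The same list had 4 lower, with Srsf11 (-1.01 ± 0.28, adjusted p = 0.00321), Srsf2 (-0.90 ± 0.21, adjusted p = 3.44e-04) and the speckle scaffold Srrm2 (-0.85 ± 0.27, adjusted p = 0.0124) the furthest down.

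Across the screen Malat1 was lower than in nt after 4 of 33 siRNAs, siTdrd3, siPou5f1, siNcor1 and siIrx1, and no siRNA was called higher (edgeR, with 11 at an unadjusted p under 0.05, all lower). Over these 33 comparisons 1.28% of gene tests were called lower and 2.57% in either direction. Malat1 differed among the siRNAs and nt (adjusted p = 4.07e-11), as did 44.8% of genes. The fitted difference from nt was below 0 for 26 siRNAs and above 0 for 7, with a median of -0.16 and SEs of 0.17 to 0.21. All 33 comparisons share the 3 nt libraries, and nt stood eighth of the 35 transfected conditions in mean Malat1. Neighbours in that order differed by at most 231 CPM, less than the median SD of 336 CPM within a condition.

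**Figure D3:**
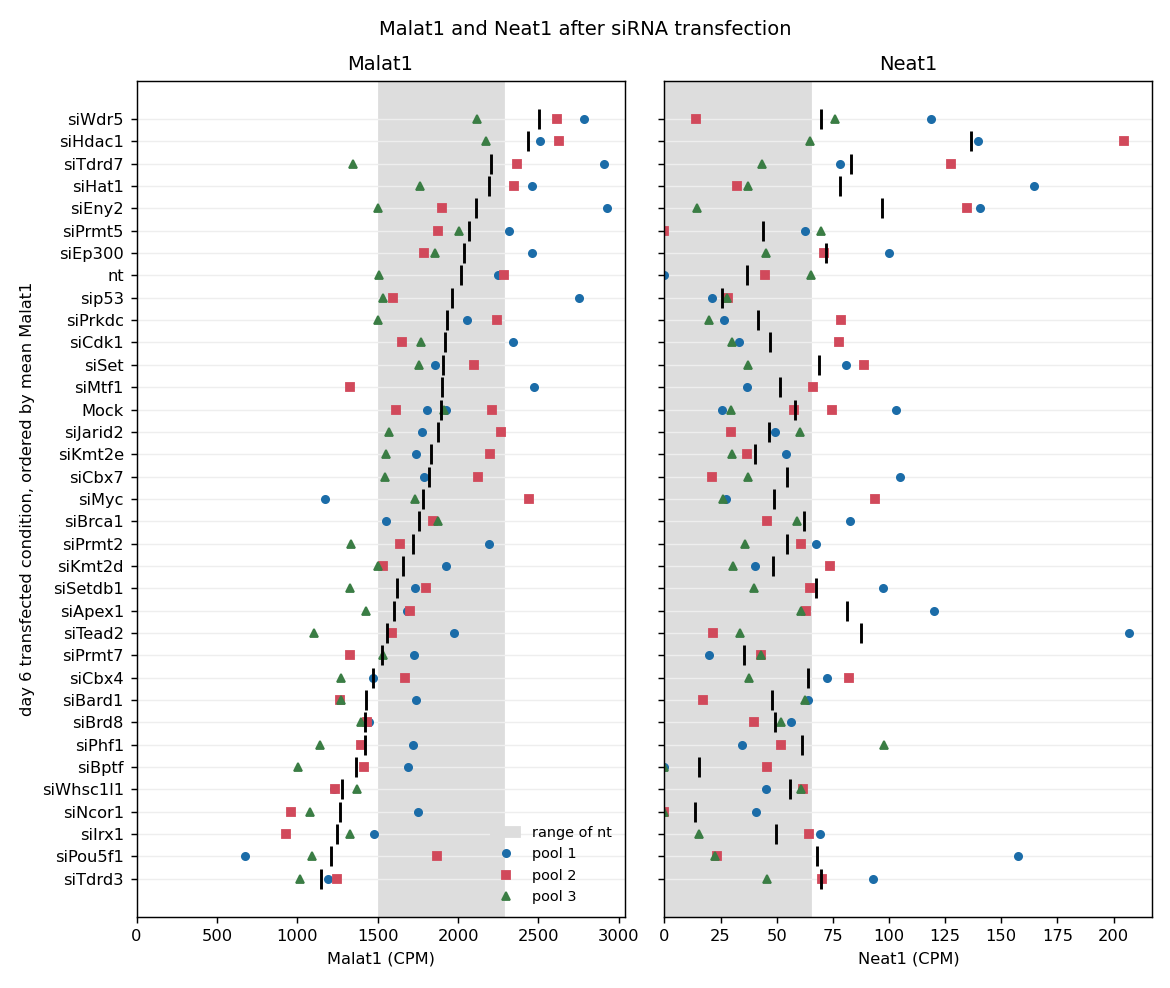
Malat1 (left) and Neat1 (right) CPM in each library of the 35 transfected conditions, ordered by mean Malat1. Symbols are libraries by sequenced pool, black ticks are condition means and the grey band is the range of the 3 nt libraries. All libraries of 4 conditions, siTdrd3, siIrx1, siWhsc1l1 and siBrd8, lie below the nt range of Malat1, and Neat1 means run from 13.6 to 136 CPM with libraries spread across the nt range.

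After siTdrd3, against a Tudor domain protein, the libraries of pools 1, 2 and 3 stood at 1188, 1246 and 1016 CPM, all below nt at 1511 to 2288 CPM. The difference was -0.79 ± 0.19 (adjusted p = 0.011), in a comparison that called only 0.863% of genes. It was -0.92, -0.88 and -0.57 within the pools. After siPou5f1, against Oct4, the libraries ranged widely, at 675, 1868 and 1093 CPM, and overlapped nt (-0.71 ± 0.20, adjusted p = 0.0112, 5.77% of genes called). The lowest of them, from pool 1, stood apart in mitochondrial share, at 15.1% of counts against 24.1% and 21.3% in the other 2, and its mitochondrial rRNA took 3.92% against 12.2% and 12.5%, whose part in the result was not tested. After siNcor1, against a nuclear receptor corepressor, they held 1753, 963 and 1081 CPM and overlapped nt (-0.66 ± 0.19, adjusted p = 0.0219, 4.45% called). After siIrx1, against a homeobox factor, they held 1476, 932 and 1330 CPM, all below nt (-0.64 ± 0.18, adjusted p = 0.0315, 2.02% called). Mitochondrial genes took 15.4% to 18.5% of counts in the siIrx1 libraries and 22.8% to 26.3% in nt, and their part in the result was not tested.

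These 4 calls were less firm than the day 3 peak. Without the replicate block none of the 33 comparisons was called (edgeR), with siTdrd3 at -0.81 (adjusted p = 0.213), although 9 had an unadjusted p under 0.05. The siTdrd3 call was lost without pool 1 (-0.70, adjusted p = 0.103) and pool 2 (-0.75, adjusted p = 0.19), and the siPou5f1 call without pool 1 (-0.40, adjusted p = 0.414) and with only its own and the nt libraries (-0.84, adjusted p = 0.0762). The siNcor1 call was lost without pool 2 (-0.43, adjusted p = 0.462) and pool 3 (-0.70, adjusted p = 0.122) and with all libraries with counts (-0.63, adjusted p = 0.0515), and the siIrx1 call without pool 1 (-0.63, adjusted p = 0.0997) and pool 2 (-0.39, adjusted p = 0.597). The siIrx1 call was also lost with RLE size factors (-0.58, adjusted p = 0.068), total counts (-0.41, adjusted p = 0.208), where the median of all genes moved from 0.031 to 0.081 and 0.25, and with DESeq2 (-0.60, adjusted p = 0.0736) and all libraries with counts (-0.64, adjusted p = 0.0581).

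The siRNA targets themselves were mostly too thinly counted to check the knockdown here. Tdrd3 had 1 count after siTdrd3 and 2 in nt, Pou5f1 0 and 4, Irx1 1 and 3, and Ncor1 12 and 22 (61 against 88.2 CPM, pooled over the libraries). Over all siRNAs 21 of 33 targets had a lower pooled CPM than in nt by any margin, while 4 had no count in nt. Of the other siRNAs described, Wdr5 had 7 counts after siWdr5 and 9 in nt, Bard1 0 and 2, Brca1 4 and 2 and Hdac1 18 and 23. As pooled CPM this was 281% of nt for Brca1 and 163% for Hdac1. Eny2 had 35 counts after siEny2 and 32 in nt (102% of nt as CPM), Bptf 11 and 20 (98.9%), Trp53 after sip53 5 and 8 (101%), and Apex1 30 and 59 (67.5%). Hat1, with 106 counts after siHat1 and 71 in nt, stood at 98.3% of its nt level in CPM. For the siRNAs described here against Hat1, Eny2, Hdac1, Bptf, Trp53 and Brca1 the pooled CPM thus gives no clear sign of a lower target RNA. For the last 2 the counts are few. Single libraries of pools 1, 2 and 3 were uneven. Hdac1 stood at 69.75, 68.25 and 227.4 CPM against a pooled 92.25 in nt, and Bptf at 172.1, 68.39 and 45.6 against 80.22. Hat1, Eny2 and Trp53 also had libraries on both sides of the pooled nt level, and Brca1 lay above it in each. These counts were from day 6. The study verified high knockdown of Brca1, Bard1 and Wdr5 by RT-qPCR at an earlier day, which these counts cannot test.

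The highest fitted differences of Malat1 from nt followed siWdr5, against a subunit of histone H3K4 methyltransferase complexes, siHdac1, against a histone deacetylase, and siHat1, against a histone acetyltransferase. The siWdr5 libraries held 2787, 2616 and 2117 CPM and exceeded nt of the same pool in 3 of 3 pools, but the difference of 0.33 ± 0.17 did not pass the test (adjusted p = 0.146, 27.2% of genes called). With other scalings it did, at 0.51 (RLE, adjusted p = 0.0204) and 0.46 (total counts, adjusted p = 0.0307), where the median of all genes moved as well, from 0.003 to 0.18 and 0.13, as it did against nt and Mock pooled (0.37, adjusted p = 0.0402) and with only its own and the nt libraries (0.45, adjusted p = 0.00748). The siHdac1 libraries held 2511, 2628 and 2176 CPM (0.30 ± 0.19, adjusted p = 0.599) and siHat1 gave 0.13 ± 0.17 (adjusted p = 0.976).

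WDR5, BRCA1 and BARD1, which the study sets beside each other, were also compared directly, a choice made after the values were seen. Malat1 was higher after siWdr5 than after siBard1, at 1741, 1268 and 1270 CPM, by 0.81 ± 0.18 (adjusted p = 4.10e-04, 8.36% of genes called). Against siBrca1, at 1550, 1846 and 1873 CPM, the difference was 0.48 ± 0.18 and did not pass the test (adjusted p = 0.0779, 9.99% called). Over the alternatives the siBard1 difference was lost with limma (0.75, adjusted p = 0.364), and the siBrca1 difference passed with RLE size factors (0.60, adjusted p = 0.0194) and without pool 3 (0.71, adjusted p = 0.0475) and was 0.23 with limma. Between siBrca1 and siBard1 it was 0.33 ± 0.19 (adjusted p = 0.655, 0.863% called).

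Malat1 moved against the share of counts in ribosomal protein genes across the transfected conditions, with Pearson's r = -0.74 and Spearman's rho = -0.65 over 35 condition means. Both measures are shares of the same counts of the same libraries. Ribosomal protein genes took 4.91% of counts in nt, 6.78% after siPou5f1, 5.71% after siNcor1, 5.47% after siIrx1 and 5.33% after siTdrd3, against 3.18% after siWdr5. Uncalled siRNAs also had high shares, such as siWhsc1l1 (6.35%), siPhf1 (5.79%) and siPrmt7 (5.55%). From Day00 to Day06 the shares were 2.31%, 3.12%, 3.52%, 2.96%, 3.43%, 4.26% and 4.17%, and their relation to Malat1 was not tested. When these genes and the mitochondrial ones were left out of the scaling, the same 4 siRNAs were called. The mitochondrial share had r = 0.16 with Malat1 over the same conditions, and r = 0.69 with rho = 0.86 over the 7 days.

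**Figure D4:**
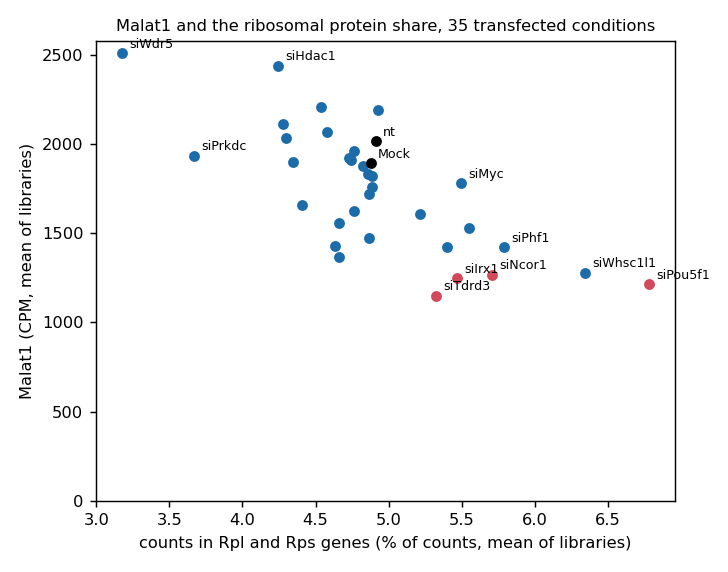
Mean Malat1 CPM against the mean percentage of counts in Rpl and Rps genes in the 35 transfected conditions. Red points are the 4 siRNAs with Malat1 called lower than nt, black points nt and Mock, blue points the others. Malat1 falls from 2506 CPM at 3.18% (siWdr5) to 1212 CPM at 6.78% (siPou5f1).

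Neat1 was not called after any of the 33 siRNAs by edgeR, DESeq2 or limma, where edgeR called 2.57% of gene tests, and 1 comparison had an unadjusted p under 0.05 in each. The any-siRNA test gave an adjusted p of 0.636. Condition means ran from 13.6 CPM after siNcor1 to 136 CPM after siHdac1, on 2 to 26 counts per condition. The lowest fitted differences followed siNcor1 (2, 0 and 0 counts, -1.92 ± 1.01, adjusted p = 0.349), siBptf, against a chromatin remodelling subunit (0, 2 and 0 counts, -1.47 ± 1.05), and sip53 (1, 1 and 2 counts, -0.74 ± 0.89). The highest followed siHdac1 (4, 6 and 4 counts, 1.43 ± 0.69, adjusted p = 0.40), siEny2 (9, 9 and 2 counts, 0.83 ± 0.64) and siApex1 (5, 3 and 6 counts, 0.77 ± 0.68). As summed counts, siHdac1 held 14 against 11 in nt at a smaller depth, a ratio of 2.65 with an exact 95% interval of 1.12 to 6.46, and siNcor1 held 2 against 11, a ratio of 0.23 with an interval of 0.0248 to 1.06. These Neat1 values moved widely with a replicate left out, from 0.92 to 2.81 for siHdac1, 0.019 to 2.45 for siEny2, 0.12 to 1.83 for siApex1 and -5.25 to -0.16 for siNcor1. With a median SE of 0.72, a change of Neat1 of the size seen for Malat1 was not detectable at this depth.

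In the siNcor1 comparison, which held a Malat1 call and the lowest fitted Neat1 value of the screen, the paraspeckle protein Rbm3 was higher (0.77 ± 0.25, adjusted p = 0.0436) and the speckle proteins Pnn (-1.32 ± 0.39, adjusted p = 0.0257) and Bclaf1 (-1.02 ± 0.22, adjusted p = 4.54e-04) were lower. These were 1 of 14 and 2 of 28 filtered members, 7.14% of each list, against 4.45% of all filtered genes, a difference that was not tested. Bclaf1, a splicing and transcription factor, was also the only speckle protein called after siTdrd3 (-0.88 ± 0.21, adjusted p = 0.00817), and it was lower in Mock than in nt as well (-0.67 ± 0.19, adjusted p = 0.0493).

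Malat1 and Neat1 were related over the 42 conditions with r = 0.53 and rho = 0.36, and by Pearson's r over these conditions Malat1 came first for Neat1 among 1641 genes with a mean of at least 100 CPM. By Spearman's rho Gm13340 was as close (0.36), and over the transfected conditions alone Pafah1b1 (r = 0.64), Atp6v1a (0.43), mt-Co1 (0.37) and Gm13340 (0.36) were all closer than Malat1 (0.33). Both values share libraries and scaling. The relation was stronger over the 7 days (r = 0.89, rho = 0.57) than over the 35 transfected conditions (r = 0.33, rho = 0.20). After Malat1, the genes most like Neat1 were Pafah1b1 (r = 0.48), mt-Co1, Atp6v1a and Gm13340 (r = 0.40 to 0.44), against a median of -0.01 over all genes considered. Most like Malat1 were Hsp90b1, an endoplasmic reticulum chaperone (r = 0.65), Atrx, a chromatin remodeller (r = 0.63), Pabpc1, the cytoplasmic poly(A)-binding protein (r = 0.62), Chd4, a remodeller of the NuRD complex (r = 0.60), and Ctsb, a lysosomal protease (r = 0.58), against a median of -0.04. Over the transfected conditions alone Hsp90b1 and Atrx had r = 0.73 each with Malat1, while Ctsb had r = 0.94 over the days and 0.38 over the transfected conditions.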

How the data were processed

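The deposited table holds UMI-corrected counts per gene and library for 3 sequenced pools, 1 per replicate. Mapping by the authors used Bowtie2 and the mm10 genome, and counting the CEL-Seq2 pipeline at its default settings with GENCODE vM13. A second deposited table gives log2 values, CPM that the authors scaled by size factors and freed of the batch by regression. They served for the choice of libraries and as an alternative. The condition of a library was read from its column name. Of 129 libraries with counts, 127 were used, and 2 with 6403 and 7981 counts, which are missing from the log2 table, entered an alternative only. Mock columns that share a name within a pool were kept as separate libraries, and of the pair in pool 3 the one used is that found in the log2 table (r = 0.987, against 0.0253 for the other).

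Counts were tested with edgeR 4.0.16 (quasi-likelihood, TMM, filterByExpr by condition, a term per condition and per replicate, 83 residual degrees of freedom), with Benjamini-Hochberg adjustment over 3013 genes and a threshold of 0.05. SEs were derived from the test statistic. Listed genes below the filter were fitted in a second model. The study regressed out the batch, so the block is part of the design. Deviations of libraries with the same number had a median correlation of 0.098, and those with different numbers -0.0685. DESeq2 1.42.0, limma 3.58.1 and R 4.3.3 gave alternatives. The procedure was tested on simulated data. Pearson's r used condition means of log2 CPM (prior count 2) with the replicate removed. Sequences came from GENCODE vM21 transcripts.

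Named are both RNAs, the siRNAs with a call, the 3 lowest and 3 highest per RNA, up to 3 called genes per direction from each list in 3 comparisons (Day06 against Day00, nt against Day06 and siNcor1 against nt), and the 5 most alike genes. Genes named for day 3, for siTdrd3 and for Mock against nt and the direct siRNA comparisons were named after their values were seen, as were the tests of days adjacent in level. The rule for the 2 members uses no values, but members and gene lists were chosen with earlier results of these data known.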

Additional observations from a re-analysis of the deposited data

How the results depend on the processing

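The day 3 peak of Malat1 was called in all 12 alternatives, at 1.52 to 2.06 against Day00 and -1.54 to -1.27 from Day03 to Day04 on the log2 scale. The any-day and any-siRNA tests of Malat1, its rise from Day02 to Day03, and the absence of Neat1 calls among the siRNAs also held in all 12. For the results that changed, the cause was not tested. Of 6 days, Malat1 was called on 2, but on 1 with RLE size factors, without the replicate block, with limma or with DESeq2, and on 1 to 3 with a replicate left out. Of 33 siRNAs, 4 were called for Malat1, but 0 without the replicate block, 0 with limma, 2 with all libraries with counts (siPou5f1 and siTdrd3), 7 with only the libraries of the siRNA and nt (siPou5f1 not among them, and siWdr5 higher), and 1 to 3 with a replicate left out. With RLE size factors or total counts the number stayed at 4, with siIrx1 lost and siWdr5 called higher, and with nt and Mock as the control siWdr5 was added. The replicate numbers mark the sequenced pools. Without the block the day 3 difference of Malat1 was 1.80 (adjusted p = 1.54e-08).

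For Neat1, limma gave an any-day adjusted p of 0.0613 and called 0 days and 0 steps, and leaving out a replicate gave adjusted p of 0.00378 to 0.082, 0 to 1 days and 0 to 1 steps. Mock against nt was 0.046 for Malat1 with limma, and with a replicate left out -0.25 to 0.035 for Malat1 and -0.23 to 1.34 for Neat1. Malat1 in nt against Day06 passed the test without mitochondrial and ribosomal protein genes (0.50, adjusted p = 0.0321), and Mock against Day06 was -0.089 with total counts, where the median of all genes was -0.58.

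Some small differences changed sign. With total counts Malat1 was at 0.015 on Day01 and 0.047 on Day06 against Day00, where the medians of all genes were 0.22 and 0.12, with limma at 0.16 and 0.12, and without the replicate block at 0.037 on Day06. With a replicate left out it ran from -0.32 to 0.0033 on Day01, from -0.091 to 0.26 on Day06, and from -0.36 to 0.093 for Day05 against Day04. Neat1 on Day04 against Day00 was 0.024 without the replicate block, 0.14 with only the time course libraries and -1.10 to 0.39 with a replicate left out. On Day06 it was -0.51 with limma, -0.013 with DESeq2 and -1.79 to 0.82 with a replicate left out, and Day05 against Day04 ran from -0.12 to 2.29. The Neat1 value of sip53 against nt was 0.030 with limma and -0.99 to 0.040 with a replicate left out, and that of siBptf was -4.85 to 0.25.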
